A study of Mus musculus with 23 samples.

Results

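The 7 genes described here encode the main brain receptor for endocannabinoids and the enzymes that make and break down its ligands: Cnr1, Dagla, Daglb, Mgll, Faah, Napepld and Abhd6. They were chosen by name as parts of this pathway, with earlier results of these data known. Each gene was read from the probe set that the array annotation assigns to it alone. All 7 had exactly 1 such probe set, out of 22180 genes named in this way and 41345 probe sets in all.

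The arrays came from micropunches of the nucleus accumbens, which is the ventral striatum and takes part in reward, in C57BL/6 mice aged 15 weeks. All mice had received an adeno-associated virus (AAV) in this region about 5 weeks earlier, carrying a hairpin RNA against Nr1d1 or a scrambled hairpin. Among females 5 arrays were labelled control and 6 knockdown, and among males 6 carried each label, with 1 array per sample. The sources used here name neither the promoter and serotype of the virus nor the hour of collection. The labels' text on treatment names postpartum day 7 for males too, so reproductive state was not used. A punch holds neurons, glia and vessels, infected and not, and in such bulk tissue fewer cells of a type and less RNA per cell cannot be told apart.

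Endocannabinoids are lipids that neurons release from the postsynaptic side and that act back on the presynaptic terminal. There they bind the CB1 receptor, a G protein coupled receptor encoded by Cnr1, and lower transmitter release. The best known are 2-arachidonoylglycerol (2-AG), cut from diacylglycerol by the lipases of Dagla and Daglb, and anandamide, released from its membrane precursor by the phospholipase of Napepld. In the striatum this signalling acts at excitatory inputs from the cortex and at inhibitory synapses.

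Nr1d1 encodes REV-ERBα, a nuclear receptor that represses transcription and binds the hexamer AGGTCA next to an A/T-rich stretch. The hexamer was sought on both strands (AGGTCA or TGACCT) in the 250 bases before each annotated start, from the RefSeq promoter table on GRCm38.p6. That table held 10 windows of 6 members and no entry matched for Dagla. The letters occurred in 1 of the 10 member windows, at Cnr1, and in 14.0% of all 32817 windows of this length. The window of Cnr1 that holds them (chr4:33924014-33924263, plus strand) is printed with the hexamer in capitals, and that of Faah (chr4:116017925-116018174, minus strand) because Faah was the member whose level moved most closely with Cnr1. Both read 5′ to 3′ towards the start.
Cnr1: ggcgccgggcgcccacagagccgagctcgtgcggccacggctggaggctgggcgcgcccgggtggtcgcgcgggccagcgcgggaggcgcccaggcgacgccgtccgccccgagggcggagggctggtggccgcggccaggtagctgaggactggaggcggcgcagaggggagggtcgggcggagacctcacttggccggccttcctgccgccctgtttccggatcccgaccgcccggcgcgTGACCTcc
Faah: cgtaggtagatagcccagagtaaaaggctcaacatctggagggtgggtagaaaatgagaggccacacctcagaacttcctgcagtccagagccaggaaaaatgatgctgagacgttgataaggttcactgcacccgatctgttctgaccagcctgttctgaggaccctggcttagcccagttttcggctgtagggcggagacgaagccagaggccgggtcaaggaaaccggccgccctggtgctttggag
In the Cnr1 window the match lay on the reverse strand and began 8 bases before the start. The match is a description of the letters and not a binding site. The absence of the letters from the other windows says only that they are not there.

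Values are the deposited log2 intensities of the probe sets. Intensities of different probe sets were not compared with each other. The medians of the 11 female arrays lay at 6.11 to 6.17 and those of the 12 male arrays at 5.84 to 5.88, so an effect of sex on a level cannot be told apart from one of processing, and no level was compared between the sexes. For Nr1d1, the target of the hairpin, no difference between the labels was detected. It averaged 10.04 ± 0.07 (SD, n = 5) in female controls and 9.99 ± 0.16 (SD, n = 6) in females labelled knockdown, a difference of −0.05 (95% interval −0.24 to 0.13; exact permutation test, two-sided p = 0.563). In males it averaged 9.59 ± 0.20 and 9.58 ± 0.13 (SD, n = 6 each), a difference of −0.01 (interval −0.19 to 0.17; exact permutation test, p = 0.926). All directions given here therefore compare arrays by their labels. Medium spiny neurons are the principal neurons here, and their markers were high in every array, with Penk at 12.41 to 12.93 and Drd2 at 10.80 to 11.76. Among markers of cortical excitatory neurons, Slc17a7, their vesicular glutamate transporter, read 8.92 to 11.13 in the female arrays and 4.64 to 10.34 in the male arrays. The lowest male value lay close to the lower quartile of all probe sets, which was 4.50 to 4.56 in the male arrays. The lowest male values of the cortical transcription factors Tbr1 (5.27) and Neurod6 (5.49) lay below the medians of the male arrays.

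For no member was a difference between arrays labelled knockdown and control detected after adjustment, in either sex or averaged over both. The mean differences of the 7 genes ran from −0.05 to 0.10 in females and from −0.09 to 0.12 in males on the log2 scale. The values of the groups overlapped for every member in both sexes. The share of all genes whose groups overlap was not computed, so this only describes the members. With limma and Benjamini-Hochberg adjustment over all 41345 probe sets, 0 of the 7 passed a threshold of 0.05, as did 0% of all probe sets in each of the 4 comparisons. At an unadjusted p under 0.05 limma counted 0 members in females, where 2423 probe sets (5.86%) passed, and 1 in males, where 1948 (4.71%) passed. It counted 0 members in the average of both sexes, where 1949 probe sets (4.71%) passed, and 0 in the male effect minus the female effect, where 2358 (5.7%) passed.

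**Figure D1:**
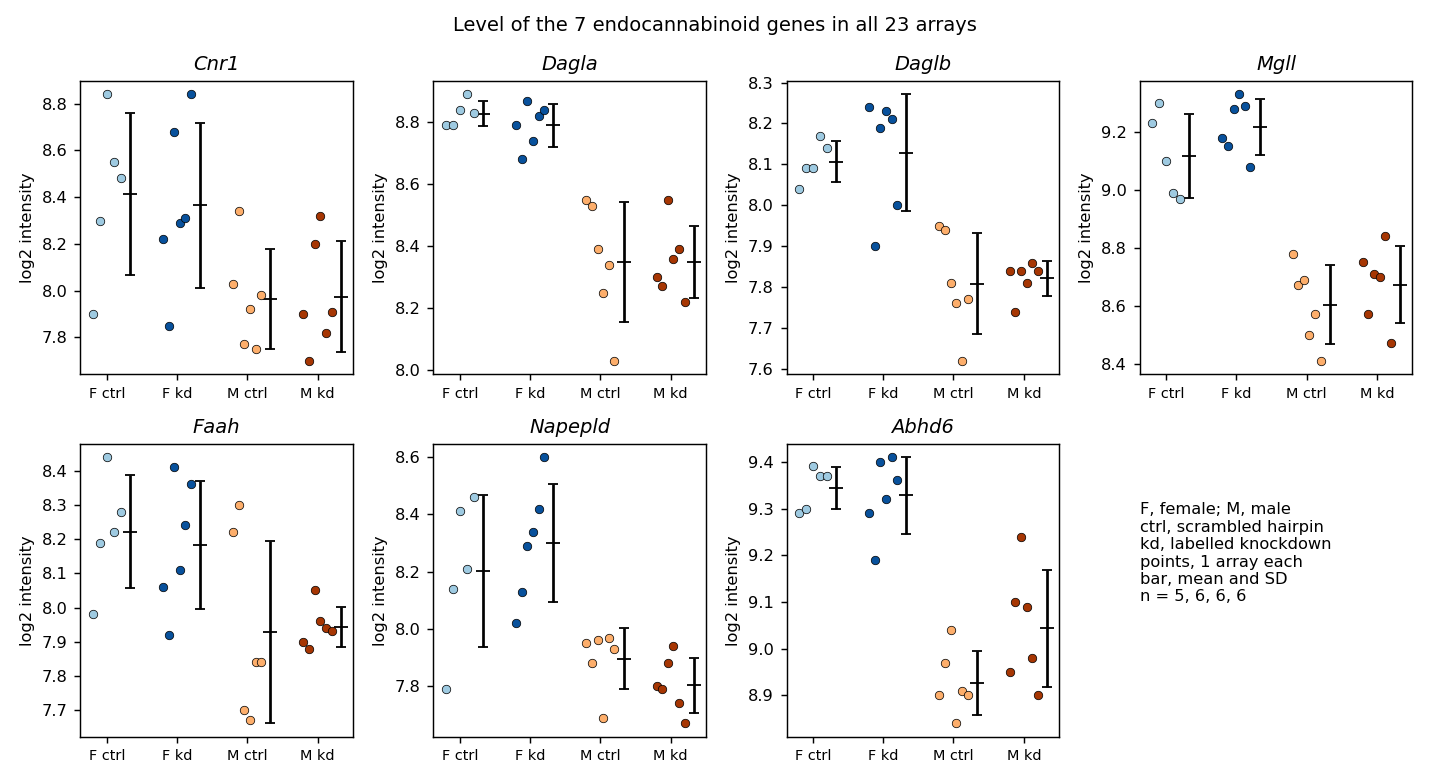
Log2 intensity of the 7 endocannabinoid genes in each of the 23 arrays (points), by sex and label, with the group mean and its SD. The points of arrays labelled knockdown and control overlap in every panel, and the Cnr1 points of females labelled knockdown run from 7.85 to 8.84.

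The receptor gene Cnr1 (probe set 17412627) had the largest SD of the 7 members when pooled over the groups, although in male controls Faah had a larger one (0.27 against 0.22). The 5 female controls read 7.90, 8.30, 8.84, 8.55 and 8.48, and the 6 females labelled knockdown 8.22, 7.85, 8.68, 8.29, 8.31 and 8.84. Each female group held an array below 7.95 and one at 8.84, so they covered the same range. The mean difference was −0.05 (SE 0.17, 95% interval −0.39 to 0.29, limma adjusted p = 0.988; exact permutation p = 0.816). The 6 male controls read 8.03, 8.34, 7.77, 7.92, 7.75 and 7.98, and the 6 males labelled knockdown 7.90, 7.70, 8.20, 8.32, 7.82 and 7.91. In each male group most arrays lay at 8.03 or below, and 1 control and 2 knockdown arrays lay at 8.20 to 8.34. Their difference was 0.01 (SE 0.16, interval −0.32 to 0.34, limma adjusted p = 0.998; exact permutation p = 0.959). Averaged over the sexes, the 95% interval of the Cnr1 difference ran from −16.3% to 16.3% relative to the control intensity.

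Dagla (probe set 17362646) encodes the diacylglycerol lipase that supplies most of the 2-AG at adult synapses. The female controls read 8.79, 8.79, 8.84, 8.89 and 8.83, and the females labelled knockdown had a lowest value of 8.68, a median of 8.81 and a highest of 8.87. These 11 arrays lay within a narrow band. In males the controls had a lowest value of 8.03, a median of 8.37 and a highest of 8.55, and the knockdown arrays 8.22, 8.33 and 8.55. The male controls reached further down, and both male groups had the same mean of 8.35. The differences were −0.04 in females (SE 0.07, interval −0.19 to 0.12, limma adjusted p = 0.969) and 0 in males (SE 0.07, interval −0.15 to 0.15).

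Daglb (probe set 17444346), the second diacylglycerol lipase, is best known from microglia and other immune cells. The female controls read 8.04, 8.09, 8.09, 8.17 and 8.14, and the females labelled knockdown had a lowest, median and highest value of 7.90, 8.20 and 8.24. The knockdown arrays lay on both sides of the controls. In males the corresponding values were 7.62, 7.79 and 7.95 in controls and 7.74, 7.84 and 7.86 in knockdown arrays, all of which fell inside the control range. The differences were 0.02 in females (SE 0.06, interval −0.11 to 0.16, limma adjusted p = 0.986) and 0.01 in males (SE 0.06, interval −0.11 to 0.14, limma adjusted p = 0.996).

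Mgll (probe set 17460665) encodes monoacylglycerol lipase, the enzyme that degrades most brain 2-AG. The female controls read 9.23, 9.30, 9.10, 8.99 and 8.97, and the females labelled knockdown had a lowest, median and highest value of 9.08, 9.23 and 9.33. In males these were 8.41, 8.62 and 8.78 in controls and 8.47, 8.71 and 8.84 in knockdown arrays. The knockdown values sat towards the upper part of the control range in each sex, with 5 of 6 arrays above the control mean in females and 4 of 6 in males. The difference was 0.10 in females (SE 0.08, interval −0.06 to 0.26; exact permutation p = 0.201) and 0.07 in males (SE 0.07, interval −0.08 to 0.22; exact permutation p = 0.394). Averaged over both sexes it was 0.09 (SE 0.05, interval −0.03 to 0.20, limma adjusted p = 0.980), an interval of −1.75% to 14.5% relative to the control intensity. Leaving out 1 array at a time, the difference ran from 0.063 (without female control replicate 5) to 0.146 in females and from 0.031 (without male control replicate 6) to 0.111 in males. Mgll had the largest average difference of the 7 members and did not pass the test.

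Abhd6 (probe set 17297059) encodes a postsynaptic hydrolase that degrades a smaller part of 2-AG. The female controls read 9.29, 9.30, 9.39, 9.37 and 9.37, and the females labelled knockdown had a lowest, median and highest value of 9.19, 9.34 and 9.41. Their difference was −0.02 (SE 0.06, interval −0.13 to 0.10, limma adjusted p = 0.989). All 5 female controls lay inside the range of the knockdown arrays. In males the 6 controls read 8.90, 8.97, 9.04, 8.84, 8.91 and 8.90, and the 6 knockdown arrays 8.95, 9.10, 9.24, 9.09, 8.98 and 8.90. Of the male knockdown arrays, 5 of 6 lay above the control mean, and 3 of 6 above the highest control. The male difference of 0.12 (SE 0.05, interval 0.0047 to 0.23) was the only one of a member with an unadjusted limma p under 0.05 (0.0418), and with adjustment it did not pass (limma adjusted p = 0.996). With the males fitted alone, the unadjusted limma p was 0.0851 (SE 0.06). Over all alternatives this p ran from 0.0139 (without male knockdown replicate 6) to 0.142 (without male knockdown replicate 3). The exact permutation test gave p = 0.0779, where 0.00216 is the smallest value it allows. Without male knockdown replicate 3 the difference was 0.08 (SE 0.05), and its limma adjusted p was 0.999. The male effect minus the female effect was 0.13 (SE 0.08, interval −0.03 to 0.29, limma adjusted p = 0.894).

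Napepld (probe set 17445860), the anandamide-forming phospholipase, was spread widely in females. The female controls read 7.79, 8.14, 8.41, 8.21 and 8.46, and the females labelled knockdown had a lowest, median and highest value of 8.02, 8.32 and 8.60. In males these were 7.69, 7.94 and 7.97 in controls and 7.67, 7.80 and 7.94 in knockdown arrays. The mean differences had opposite signs in the sexes: 4 of 6 knockdown arrays lay above the control mean in females and 1 of 6 in males. The differences were 0.10 in females (SE 0.10, interval −0.12 to 0.31; exact permutation p = 0.519) and −0.09 in males (SE 0.10, interval −0.30 to 0.11; exact permutation p = 0.152). The male effect minus the female effect was −0.19 (SE 0.14, interval −0.49 to 0.11, limma adjusted p = 0.928), so a difference between the sexes was not shown. Without female control replicate 1, the lowest female array, the female difference was −0.005.

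Faah (probe set 17428509) encodes fatty acid amide hydrolase, which degrades anandamide. The 5 female controls read 7.98, 8.19, 8.44, 8.22 and 8.28, and the 6 females labelled knockdown 8.06, 7.92, 8.41, 8.11, 8.24 and 8.36. The 6 male controls read 8.22, 8.30, 7.70, 7.67, 7.84 and 7.84, and the 6 males labelled knockdown 7.90, 7.88, 8.05, 7.96, 7.94 and 7.93. In males, control replicates 1 and 2 lay above all knockdown arrays and the other 4 controls below all of them, so the knockdown arrays filled the gap between. The SD was 0.27 in male controls and 0.06 in males labelled knockdown. The differences were −0.04 in females (SE 0.11, interval −0.26 to 0.19, limma adjusted p = 0.985) and 0.02 in males (SE 0.10, interval −0.20 to 0.23, limma adjusted p = 0.997).

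**Figure D2:**
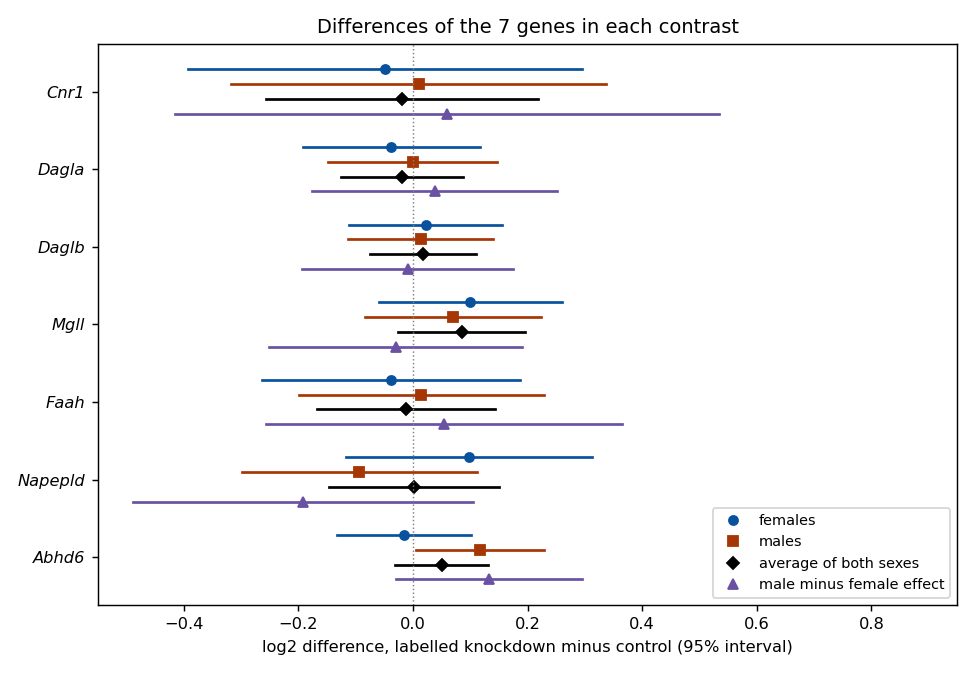
Difference in log2 intensity, arrays labelled knockdown minus control, for the 7 genes in females, in males and averaged over both, and the male effect minus the female effect, with 95% intervals from limma. All intervals include 0 except that of Abhd6 in males, whose lower end lies just above 0.

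The rest of the pathway gave the same picture. Of 40 further genes in 5 lists, 38 had a probe set of their own: other cannabinoid receptors and partners, other synthesis enzymes, other breakdown and carrier genes, receptors and enzymes that supply diacylglycerol, and genes that couple or desensitize the receptor. None passed the adjusted threshold in limma in any comparison. Averaged over both sexes, 19 of the 38 were higher and 19 lower, with a median difference of −0.002, where the median of all 22180 named genes was 0.002. In females 16 were higher and 22 lower (median −0.02), and in males 23 were higher and 15 lower (median 0.02).

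At an unadjusted limma p under 0.05, 3 of the 38 were lower and 0 higher in females, where 607 of the 22180 named genes were lower and 641 higher by this measure. The 3 were Gpr55, a lipid receptor that responds to some cannabinoids (−0.23, SE 0.09), Gnaq, a G protein subunit that drives phospholipase C (−0.10, SE 0.05), and Arrb2, the arrestin that desensitizes receptors (−0.10, SE 0.04). None of the 38 had such a p in males, where 459 of the 22180 named genes were higher and 420 lower by this measure. In the average, 2 of the 38 were higher and 0 lower by this measure, as were 516 and 416 of the named genes. They were Trpv1, an ion channel that anandamide opens (0.09, SE 0.04), and Fabp7, a fatty acid binding protein of astrocytes that carries anandamide (0.18, SE 0.08). Each had a limma adjusted p of 0.980. The male effect minus the female effect was 0.29 for Gpr55 (SE 0.12, limma adjusted p = 0.852), the only 1 of the 38 with such a p there. In that comparison 604 named genes were positive and 546 negative at this p. The other genes with the smallest p of their lists in the average were Ptpn22 at 0.10 (SE 0.05), Abhd4 at 0.06 (SE 0.06), Abhd12 at −0.03, Plcb4 at −0.15 (SE 0.09) and Gnai3 at −0.07 (SE 0.04), and none of them passed. Gpr55, Trpv1 and Ptpn22 were dim: all their group means lay below the medians of the arrays of that sex. In females Gpr55 averaged 5.64 in controls and 5.42 in arrays labelled knockdown.

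The members also differed in how they varied between arrays of one group. The pooled SD within the 4 groups was 0.29 for Cnr1, larger than for 98.4% of the named genes. It was 0.19 for Faah and 0.18 for Napepld, larger than for 88.9% and 86.4%. Mgll (0.13) and Dagla (0.12) lay near the middle, and Daglb (0.10) and Abhd6 (0.09) were steadier than most genes, with only 31.6% and 17.6% of the named genes below them.

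Within groups, Cnr1 and Faah moved together. All correlations used deviations from the group mean, so that neither sex nor label adds to them, and p came from permutation within groups with adjustment over the 21 pairs. Over 23 arrays the Pearson correlation of Cnr1 with Faah was 0.79 (permutation p = 1e-05, the smallest these permutations can give; adjusted 0.00021) and Spearman's rho was 0.79 (permutation p = 1e-05). In the 11 female arrays r was 0.95 (permutation p = 0.00019, adjusted 0.00399; rho 0.93) and in the 12 male arrays 0.65 (permutation p = 0.00544, adjusted 0.0571; rho 0.64). Without the 2 arrays farthest from the median of Cnr1, r was 0.76 over all arrays, 0.94 in females and 0.53 in males. Leaving out 1 array at a time gave r between 0.76 and 0.84 over all arrays. The array low in Cnr1 was also low in Faah in both female groups, as in female control replicate 1 and female knockdown replicate 2.

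Over all arrays 10 of the 21 pairs passed by Pearson's r after adjustment and 8 by both measures. Such values were not rare: for these 10 pairs, between 86.3% and 99.5% of named genes above the median level had a lower r with the same member, and for Cnr1 and Faah 98.9% and 98.6% did. In females 8 passed (7 by both), and in males 0 passed by either, while 20 of the 21 male coefficients were positive. The pairs that passed in females joined Cnr1, Dagla, Faah, Napepld and Abhd6. Cnr1 with Napepld had r = 0.79 in females (permutation p adjusted 0.0220) and 0.29 in males (adjusted 0.529), Dagla with Abhd6 0.87 (adjusted 0.0182) and 0.50 (adjusted 0.219), and Faah with Abhd6 0.86 (adjusted 0.00861) and 0.17 (adjusted 0.629). The difference of a correlation between the sexes was not tested.

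Mgll and Daglb stood outside this group in females. Daglb had r = 0.25 with Cnr1, 0.28 with Faah, 0.07 with Napepld, 0.47 with Dagla and 0.58 with Abhd6 there. None of these passed. For Mgll, r with Cnr1 was −0.34 in females and 0.18 in males. With Dagla, the enzyme that makes what Mgll degrades, it was −0.27 in females (permutation p = 0.388) and 0.79 in males (permutation p = 0.00369, adjusted 0.0571; rho 0.81). The pooled r of that pair, 0.51 (permutation p adjusted 0.0492), thus joins opposite signs, and its rho of 0.35 did not pass. Napepld with Abhd6 was positive in both sexes, at 0.65 in females (adjusted 0.0601) and 0.64 in males (adjusted 0.207), and at 0.54 over all arrays (permutation p adjusted 0.0152).

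**Figure D3:**
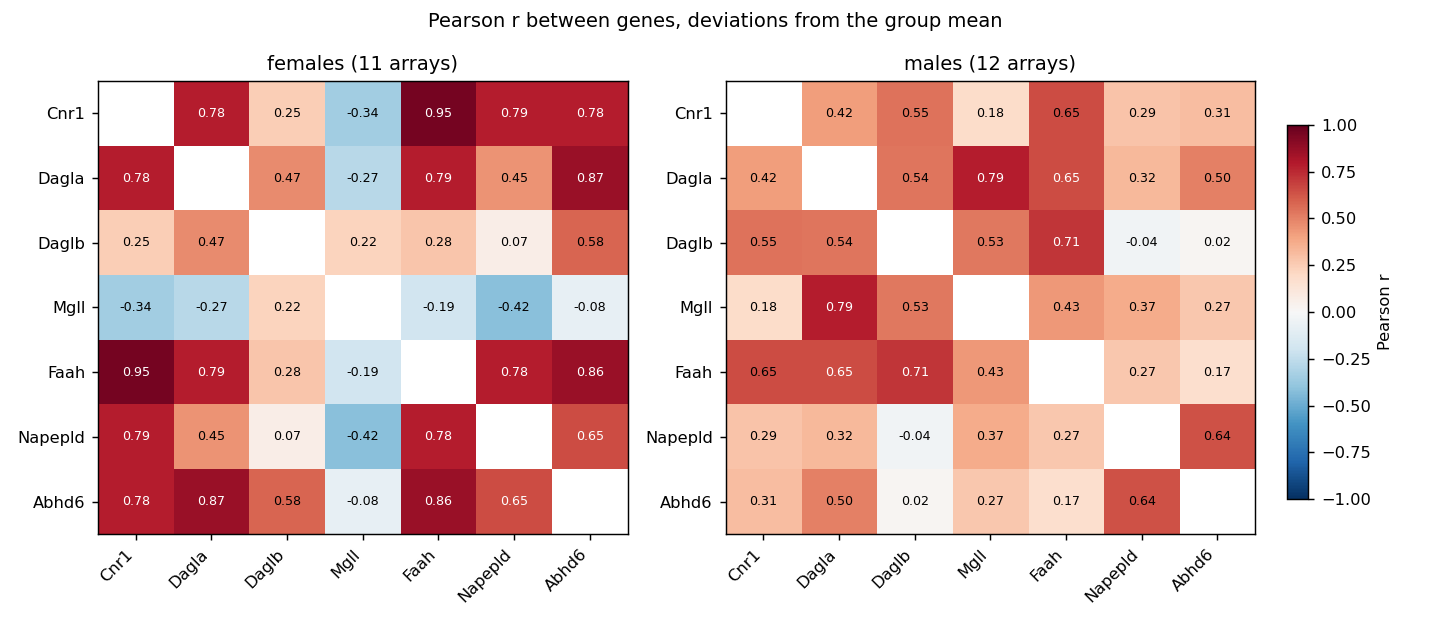
Pearson correlation of the 21 pairs of endocannabinoid genes, from deviations within groups, in females (11 arrays) and in males (12 arrays). In females the pairs among Cnr1, Faah, Dagla, Napepld and Abhd6 run from 0.45 to 0.95, and Mgll has negative values with each of these 5.

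Levels of cortical neuron markers moved with several members. The cell type lists, like the members, were chosen with earlier results of these data known. The mean of 7 cortical excitatory neuron genes (of 8 listed) averaged 8.22 ± 0.39 (SD, n = 5) in female controls, 8.22 ± 0.50 (n = 6) in females labelled knockdown, 7.04 ± 1.20 (n = 6) in male controls and 7.45 ± 0.69 (n = 6) in males labelled knockdown. In females, r with this mean was 0.96 for Faah (permutation p = 7e-05; rho 0.87), 0.95 for Cnr1 (permutation p = 0.00049; rho 0.91), 0.85 for Abhd6 and 0.80 for Dagla. These 4 passed by permutation of Pearson's r with adjustment over the 56 relations of 7 members with 8 cell type lists (adjusted 0.00196, 0.00504, 0.0184 and 0.0340). By Spearman's rho Faah and Cnr1 passed, and Abhd6 and Dagla did not (permutation p adjusted 0.132 and 0.134). Napepld followed at 0.68 (adjusted 0.110), Daglb at 0.44, and Mgll at −0.07. Cnr1 rose by 0.73 log2 units per unit of the cortical mean in females and Faah by 0.38. In males these slopes were 0.14 and 0.16. The fits with the cortical mean as a covariate, given below, used 1 slope for both sexes. Among 11084 named genes, 99.6% had a lower r with the cortical mean than Faah in females and 99.4% a lower r than Cnr1. The share was 97.1% for Abhd6, 95.7% for Dagla, 91.2% for Napepld, 79.6% for Daglb and 42.5% for Mgll.

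In males no relation to a cell type list passed. The r with the cortical mean was 0.79 for Faah (permutation p adjusted 0.245), 0.77 for Dagla (adjusted 0.204), 0.69 for Daglb (adjusted 0.302), 0.66 for Mgll (adjusted 0.245) and 0.61 for Cnr1 (adjusted 0.245). In males 96.2% of the named genes had a lower r than Faah and 90.4% a lower r than Cnr1. The male arrays spread over a wider range of the cortical mean, and 4 of them, control replicates 3, 5 and 6 and knockdown replicate 6, lay at 6.09 to 6.23, against 6.77 to 8.78 in the other 8. Without these 4, r was 0.92 for Faah, 0.91 for Napepld, 0.89 for Dagla and 0.55 for Cnr1, and again none passed. Over all 23 arrays r was 0.80 for Faah, 0.77 for Dagla and 0.63 for Cnr1 (permutation p adjusted 0.00224, 0.0195 and 0.00224).

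**Figure D4:**
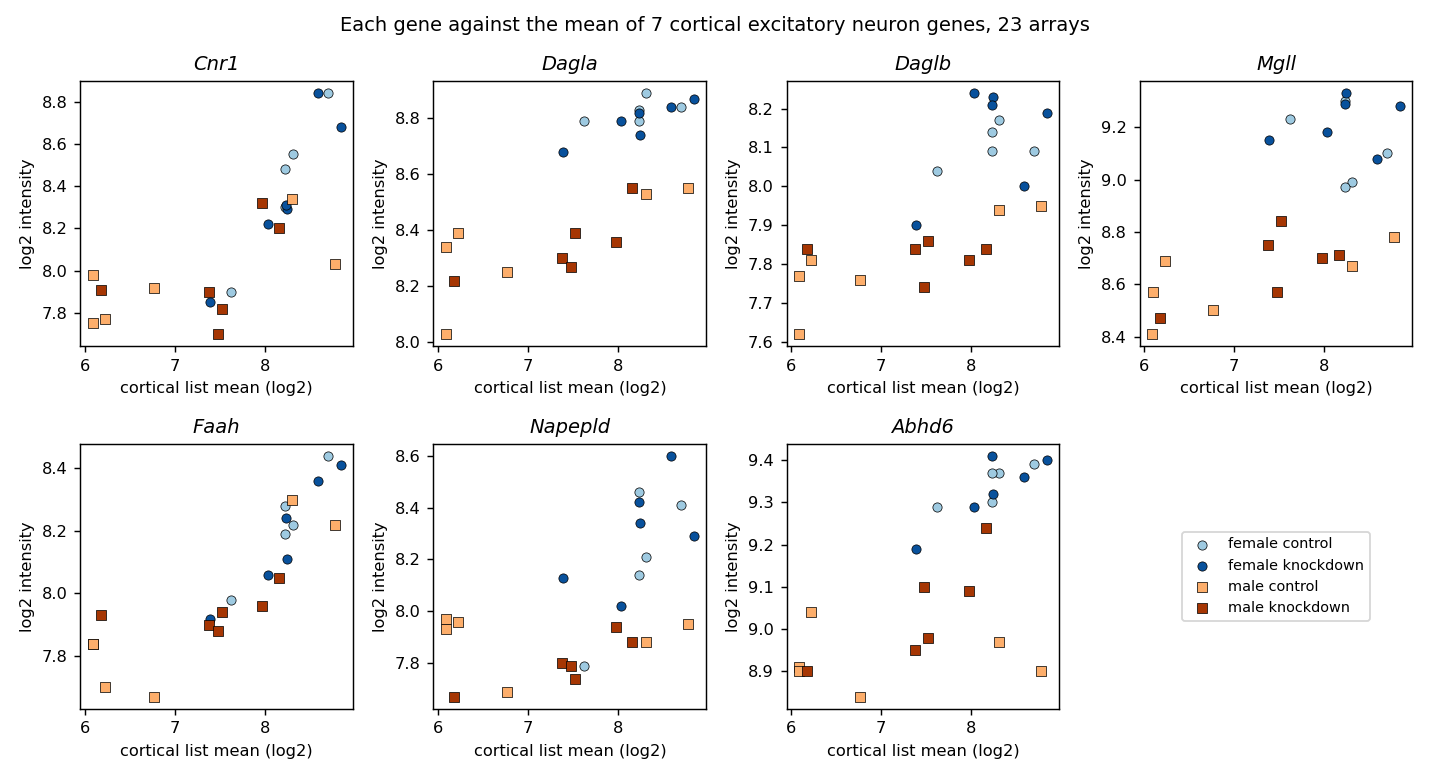
Log2 intensity of each of the 7 endocannabinoid genes against the mean of 7 cortical excitatory neuron genes in each array, by sex and label. Cnr1 and Faah climb with the cortical mean in females (r = 0.95 and 0.96), while Mgll does not (r = −0.07).

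Medium spiny neuron markers ran the other way in females. With the mean of 7 such genes (of 10 listed), r was −0.96 for Faah, −0.93 for Cnr1, −0.84 for Abhd6, and −0.79 for both Dagla and Napepld. All 5 passed by permutation of Pearson's r, with adjusted values from 0.00112 to 0.0429, and all but Napepld (permutation p adjusted 0.0792) by Spearman's rho. Of 11083 named genes, 0.0993% had an r of either sign at least as large as that of Faah, and 0.577% as that of Cnr1. The share was 4.09% for Abhd6, 6.47% for Dagla and 6.38% for Napepld. With the mean of 10 interneuron genes, r in females was 0.93 for Dagla, 0.89 for Cnr1 and 0.84 for both Faah and Abhd6, which passed by Pearson's r. By Spearman's rho Abhd6 did not pass (permutation p adjusted 0.0610). The same share, of 11081 named genes, was 0.144% for Dagla, 0.632% for Cnr1, 2.39% for Faah and 2.31% for Abhd6. Napepld (0.68), Daglb (0.41) and Mgll (−0.51) did not pass with this list. The lists were not separate measures: in females the cortical mean had r = −0.90 with the medium spiny neuron mean and 0.83 with the interneuron mean, and in males −0.14 and 0.16. In males the members' r with the medium spiny neuron mean lay between −0.40 and 0.38. With the interneuron mean the male r ran from 0.16 for Mgll to 0.65 for Cnr1 (permutation p adjusted 0.245). For this mean 98.8% of the named genes had a lower male r than Cnr1. Over all 23 arrays Cnr1 (0.82, permutation p adjusted 0.00224) and Faah (0.57, adjusted 0.0195) passed with it by Pearson's r. Dagla, Napepld and Abhd6 passed with it only by Spearman's rho.

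**Figure D5:**
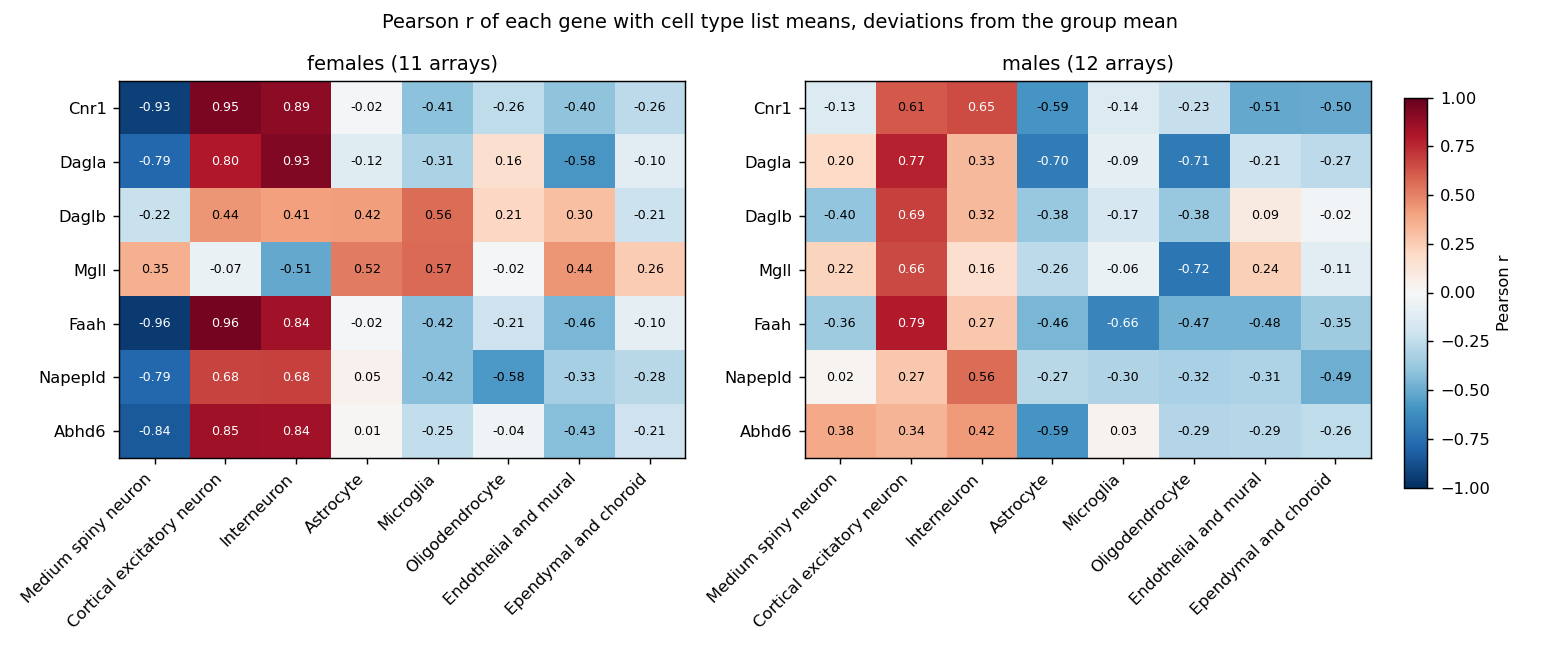
Pearson correlation, from deviations within groups, of the 7 endocannabinoid genes with the means of 8 cell type marker lists in females (left) and males (right). In females Cnr1 and Faah are positive with the cortical and interneuron lists and negative with the medium spiny neuron list, and no male value passed the adjusted threshold.

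With the cortical mean removed from each gene by regression within a sex, the pair of Cnr1 and Faah had r = 0.52 in females, from 0.95, and 0.34 in males, from 0.65. Cnr1 with Dagla had 0.13 and Dagla with Faah 0.11 in females, from 0.78 and 0.79. No test was made of these changes. The pair of Napepld and Abhd6 in males was nearly as high as before, at 0.60, and that of Dagla and Mgll in males was 0.58. Other pairs moved away from 0 or changed sign in females: Cnr1 with Mgll had −0.87, from −0.34, Cnr1 with Daglb −0.57, from 0.25, and Daglb with Faah −0.57, from 0.28. The within-group SD of Cnr1 in females went from 0.35 to 0.12 and that of Faah from 0.18 to 0.05, while in males Cnr1 went from 0.23 to 0.19. The part that cortical tissue in a punch has in these relations was not tested.

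Of the 4 male arrays lowest in cortical markers, 3 were controls. The male controls left were replicates 1, 2 and 4, with cortical means of 8.78, 8.31 and 6.77. In the knockdown arrays left, replicates 1 to 5, this mean ran from 7.38 to 8.16, so the groups were still not alike in it. Without those 4 arrays, the male difference was −0.11 for Cnr1 (SE 0.21), −0.12 for Faah (SE 0.13) and −0.07 for Daglb (SE 0.07). With them it was 0.01, 0.02 and 0.01. No member passed the adjusted threshold in limma without them. The difference of Abhd6 in males was 0.17 without the 4 arrays (SE 0.07, limma adjusted p = 0.657) and 0.10 with the cortical mean as a covariate (SE 0.05, limma adjusted p = 0.980).

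The genes most like each member in level were sought among 11089 named genes by r over the 23 arrays, again from deviations within groups and with no test. Nearest to Cnr1 were Cdk18 (r = 0.95), Ptprk (0.94) and Ccnd1 (0.93), each above 0.85 within both sexes. Nearest to Faah were Ube2ql1 (0.95), Amph (0.93) and Ndst3 (0.92), and nearest to Dagla were Strn4 (0.92), Dock3 (0.92) and Pip5k1c (0.91). For Mgll they were Mllt1 (0.86), Bmp6 (0.79) and Lrrfip1 (0.78), with similar values in both sexes. For Abhd6 they were St3gal1 (0.84), Tdp1 (0.81) and Mfap3 (0.79), for Napepld Vsnl1 (0.84), Ly96 (0.82) and Hgsnat (0.80), and for Daglb Kifc2 (0.74), Tceal5 (0.74) and Sh3bp4 (0.73). The Hgsnat value rested on females, at 0.95 against 0.31 in males.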

How the data were processed

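Per the labels, RNA from nucleus accumbens punches of 23 mice was hybridised to whole-transcript arrays. The deposited table holds log2 intensities made by the authors with Transcriptome Analysis Console, per the submitters' processing notes. Its version, the way it normalized and the build were not given in the sources used here. Array medians differed by sex, and the sources do not say whether the sexes were normalized together or apart. The labels do not say that the mice of a group were raised or processed apart, so p-values measure the spread between these samples.

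Probe sets were named from the platform annotation, only where it gives 1 symbol (23521 probe sets; 1814 have several and 16010 none), and each gene was read from the probe set of highest mean. All 41345 probe sets and 23 arrays entered 1 linear model with a mean per group (limma 3.58.1, R 4.3.3, 19 residual degrees of freedom, prior 3.24), with two-sided tests and Benjamini-Hochberg adjustment over all probe sets at 0.05. Single values were also compared by exact permutation within a sex. Correlations used deviations from group means and 100000 permutations within groups (Python 3.11.15, numpy 2.4.6). The scripts were tested on simulated data. Named beyond the 7 members were Nr1d1, pathway genes with an unadjusted p under 0.05, the 2 of smallest p per pathway list, and the genes most like each member, sought among named genes above the median level. The members and lists were chosen with earlier results of these data known. Alternatives were quantile normalization, median centring, array weights, leaving out dim probe sets, and limma with a trend of variance on level. Others were a replicate block, the cortical mean as a covariate with a common slope, each sex alone, and leaving out arrays. Those that leave out several arrays, and the removal of the cortical mean from pairs, were chosen after seeing the data. Deviations of same-numbered arrays had r from −0.10 to 0.14, which does not settle whether they were paired.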

Additional observations from a re-analysis of the deposited data

Results flagged for a closer look

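Among 64 groups of values (7 members, Nr1d1 and 8 cell type list means, in 4 groups of arrays each), 4 held an array separated from the nearest of the others by more than Dixon's 95% critical value. Chance gives this in about 1 in 20 such groups. Napepld was lowest in male control replicate 4, at 7.69, with the next array at 7.88. Nr1d1 was lowest in female control replicate 4, at 9.93, with the next at 10.05. The medium spiny neuron mean was lowest in male knockdown replicate 6, at 10.51 against 10.68, and this array was also among the 4 lowest male arrays for the cortical mean. The mean of ependymal and choroid genes was lowest in male knockdown replicate 4, at 5.81 against 5.97.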

How the results depend on the processing

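No member passed the adjusted threshold of limma under any alternative, so the changes below are of sign in small differences. Precision depends on the number of arrays and on the spread within groups. On the same arrays the SE in females was 0.06 for Abhd6 and 0.17 for Cnr1. Signal over background was not analysed here. Leaving out 1 array at a time, the ranges were as follows. In females Cnr1 ran from −0.178 to 0.058, Faah from −0.099 to 0.016, Napepld from −0.005 to 0.163 and Abhd6 from −0.032 to 0.012. In males Cnr1 ran from −0.059 to 0.085, Faah from −0.037 to 0.089 and Daglb from −0.024 to 0.042. Dagla in males, at 0 with all arrays, ran from −0.064 to 0.040. In the average Cnr1 ran from −0.084 to 0.034, Dagla from −0.051 to 0.0012, Daglb from −0.001 to 0.041, Faah from −0.042 to 0.025 and Napepld from −0.049 to 0.035. In the male effect minus the female effect Cnr1 ran from −0.048 to 0.188, Dagla from −0.026 to 0.078, Daglb from −0.055 to 0.019, Mgll from −0.076 to 0.010 and Faah from −0.00083 to 0.128. The number of probe sets called was 0 to 1 in females, in males and in the male effect minus the female effect.

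Array weights gave −0.011 for Cnr1 in males, −0.018 for Napepld in the average, and 1 probe set called in the male effect minus the female effect. Median centring gave −0.003 for Daglb in females, −0.0062 for Napepld in the average, and 0.025 for Daglb and 0.0033 for Mgll in the male effect minus the female effect. Quantile normalization gave 0.0084 for Abhd6 in females and 0.00050 for Faah in the average. The cortical mean as a covariate gave −0.086 for Cnr1, −0.016 for Daglb and −0.063 for Faah in males, −0.014 for Napepld in the average, and −0.036 for Cnr1, −0.011 for Dagla and −0.024 for Faah in the male effect minus the female effect. Among the alternatives chosen after seeing the data, leaving out the 4 male arrays of lowest cortical mean gave −0.11 for Cnr1, −0.065 for Daglb and −0.12 for Faah in males, −0.022 for Daglb in the average, and −0.060 for Cnr1, −0.031 for Dagla and −0.079 for Faah in the male effect minus the female effect. Leaving out male control replicates 1 and 6 gave 0.014 for Faah in the average, 0.017 for Daglb in the male effect minus the female effect, and 1 probe set called in males and 1 in the male effect minus the female effect. The cause of these shifts was not tested.

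Within females Dagla with Mgll had r = −0.27 and Mgll with the cortical mean −0.066, against 0.51 and 0.44 over all arrays, and 13 of the 56 relations to lists passed by Pearson's r, against 5. By Spearman's rho 9 passed in females, against 10 over all arrays. Within males 0 pairs and 0 relations to lists passed, with or without the 4 arrays.

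Deviations of same-numbered arrays correlated at −0.10 to 0.14, so they shared little. This cannot show whether the replicate numbers of the labels pair the arrays. With the replicate block, Napepld in the average was −0.028 against 0.002, Mgll was 0.10, and 0 members were called. The mean of several probe sets was not run, since each member has 1.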
